A study of Mus musculus with 3 samples.

Results

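Immediate early genes are transcribed within minutes of a stimulus, from promoters that existing factors such as Creb and the serum response factor already occupy, and need no new protein to be made first. In neurons they follow electrical activity and growth factor signalling, and in the retina light is one of the stimuli known to raise them. This account covers 10 of them out of 21368 genes named on the arrays: the AP-1 subunits Fos, Fosb, Jun and Junb, the zinc finger factors Egr1, Egr2 and Egr3, the synaptic protein gene Arc, the nuclear receptor gene Nr4a1 and the phosphatase gene Dusp1. They were chosen as known immediate early genes, with earlier results of these data known, and found by the RefSeq accession that the scanner files give for each probe. Each is represented by 1 probe, and the Fos probe is printed at 10 spots.

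The study compared mouse retina at postnatal day 12, when photoreceptors are maturing, on 1-colour Agilent arrays, with 1 array labelled Otx2 KI, 1 labelled Crx KO and 1 of wild-type retina. KI and KO are the usual short forms of knock-in and knockout, and Crx and Otx2 encode related homeodomain factors of photoreceptors. The altered exons, the locus of the Otx2 KI, strain, sex, the number of animals behind each RNA, and the light, hour and time to lysis at dissection are not given in the sources used here. With 1 array per genotype no test across animals exists, no p-value is given, and every value below describes these 3 RNA preparations.

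Values are scaled signals, that is, Cy3 intensity after the scanner software's background subtraction, with each array divided by the 75th percentile of its spots and multiplied by that of the wild-type array. The ± beside a log2 difference is the error that the scanner software's error model gives for the 2 arrays, which covers measurement and not the spread between mice. Each array had 59305 spots other than controls, of which 63.5% to 67.1% exceeded background clearly by the scanner software's flag (called well above background here) and 0 were saturated. The Crx probe differed from wild-type by log2 -3.20 on the Otx2 KI array and by -0.45 on the Crx KO array, and the Otx2 probe by 0.64 and 0.62. Where these probes lie relative to the altered part of either allele is not given, so they do not check the labels. All 23 markers of bipolar, amacrine, ganglion and Muller glia cells were well above background on each array, as were all 5 rod markers.

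Promoter windows were found for 7 of the 10 genes among the RefSeq sequences of build GRCm38.p6, and 4 are shown here upstream of the listed start, because Fos, Dusp1 and Egr2 were among the genes 2-fold or more higher in a mutant array while Nr4a1 was not. Capitals mark the core TGACG of the cAMP response element or its reverse complement CGTCA, the full element TGACGTCA, the CArG box bound by the serum response factor, and the Egr site GCGNGGGCG, on either strand.
Fos, chr12:85473740-85473889, plus strand: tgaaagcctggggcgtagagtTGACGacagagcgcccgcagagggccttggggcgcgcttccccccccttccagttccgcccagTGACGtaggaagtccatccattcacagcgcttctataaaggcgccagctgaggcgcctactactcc
Dusp1, chr17:26508473-26508672, minus strand: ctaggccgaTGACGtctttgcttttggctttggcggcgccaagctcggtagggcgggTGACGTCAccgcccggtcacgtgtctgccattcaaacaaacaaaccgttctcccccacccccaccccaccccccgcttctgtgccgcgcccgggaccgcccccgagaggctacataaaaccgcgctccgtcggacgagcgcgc
Egr2, chr10:67537794-67537823, plus strand: agtCCATATATGGgcagcgaCGTCAcgggt
Nr4a1, chr15:101266596-101266845, plus strand: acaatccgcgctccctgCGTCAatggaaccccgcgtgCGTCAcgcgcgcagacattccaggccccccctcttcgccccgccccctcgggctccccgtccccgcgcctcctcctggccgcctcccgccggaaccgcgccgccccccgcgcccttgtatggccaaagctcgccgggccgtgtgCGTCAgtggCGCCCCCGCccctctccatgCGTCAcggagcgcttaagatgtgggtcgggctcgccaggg

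In the 250 bases before the listed start, TGACG or CGTCA was present in 6 of the 7 genes (Dusp1, Egr2, Fos, Fosb, Junb and Nr4a1), and in 17.8% of 32851 windows of the same length over all genes. The full element TGACGTCA, which contains overlapping copies of both core forms, was found in Dusp1 alone of the 7, 143 to 136 bases before the start, and in 1.55% of all windows. A CArG box was found in Egr2 alone of the 7, and in 1.47% of all windows. The box printed lies 72 to 63 bases before 1 of the listed Egr2 starts. It lies 73 to 64 and 133 to 124 bases before other listed starts. A different CArG box lies 72 to 63 bases before a further one. Egr1, Egr3 and Arc had no window listed and were not searched for any motif. Egr2 has 5 listed starts and was searched at each, while the other genes searched had 1 window each and the percentages are per window. For Egr2 only 30 bases are printed, 75 to 46 before 1 of its starts, so they end short of that start. The Egr site was found in Fosb and Nr4a1 and in 4.70% of windows. Neither the AP-1 site TGANTCA (6.75% of windows) nor the Crx site TAATCC or its reverse complement GGATTA (6.25%) was in any of the 7. These are letter matches in a short window, not measured binding, and bases further upstream were not searched. The motifs were chosen after the data were seen, so the shares do not measure enrichment. In the bases searched, Nr4a1 had 4 cores and Fos had 2, and any bearing of such matches on expression was not tested.

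**Figure D1:**
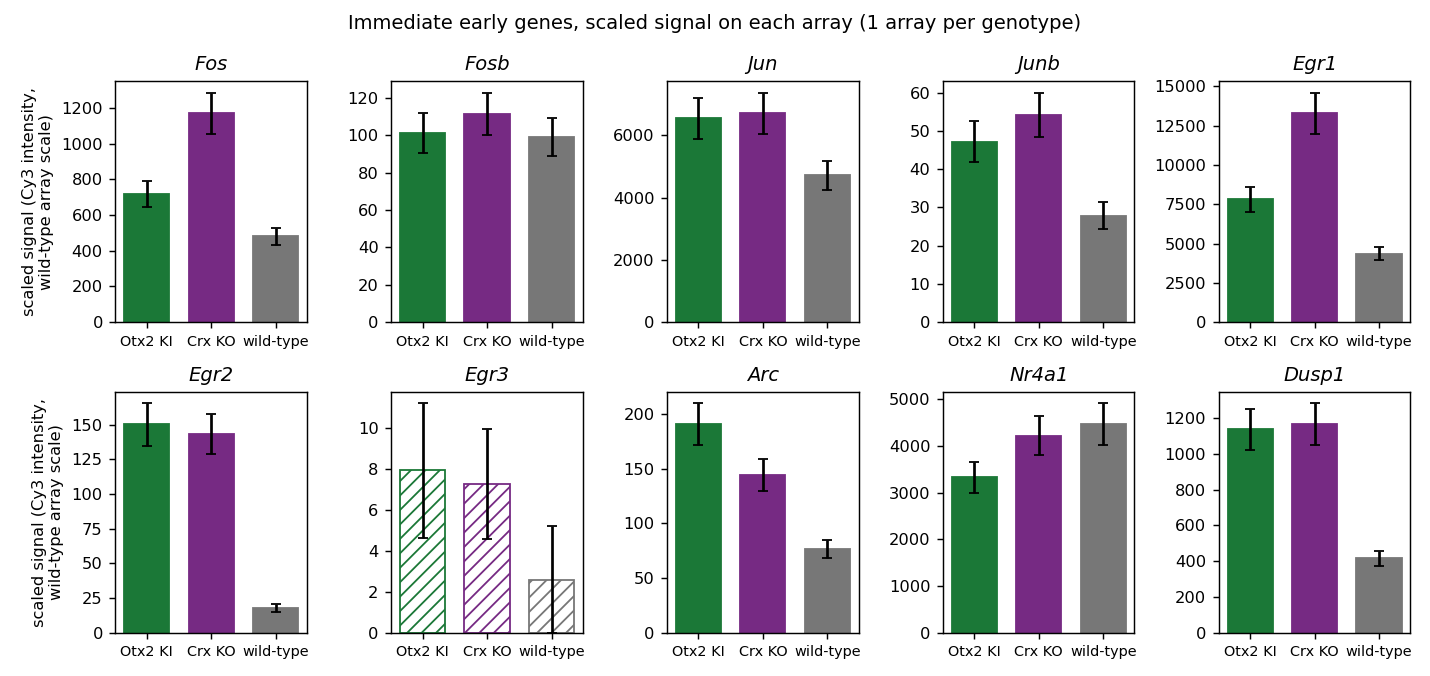
Scaled signal (Cy3 intensity on the wild-type array's scale, linear axes from 0, a separate axis per gene) of the 10 immediate early genes on the Otx2 KI, Crx KO and wild-type arrays, 1 array each; error bars are the scanner software's error, and hatched bars are not well above background. The wild-type bar is the lowest of the 3 for every gene except Nr4a1.

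A gene counted as measured where both arrays compared read its probe well above background, which held for 9 of the 10 genes on all 3 arrays and not for Egr3. Of these 9, 8 were brighter than wild-type in Otx2 KI, where 55.3% of all measured genes were, and 8 in Crx KO, where 48.5% were. Past 2-fold, the size used as a call throughout, Egr2, Dusp1 and Arc were higher in Otx2 KI than in wild-type, 3 of 9, where 1.35% of 15809 measured genes were. In Crx KO against wild-type, Egr2, Egr1, Dusp1 and Fos were, 4 of 9, where 1.95% of 16048 genes were. In either direction 3.88% of genes in Otx2 KI and 5.38% in Crx KO lay past 2-fold. Past 1.5-fold the higher genes were 5 of 9 in Otx2 KI (3.66% of all genes; Fos at 1.49-fold lay just below) and 6 of 9 in Crx KO (5.02%), and the lower ones were 0 of 9 in both (6.35% and 8.24%). None of the 9 was lower by 2-fold in either mutant, against a background of 2.53% of genes in Otx2 KI and 3.43% in Crx KO. Their median log2 difference was 0.76 in Otx2 KI, beside 0.030 over all measured genes, and 0.96 in Crx KO, beside -0.0075. The 10 genes were chosen with earlier results of these data known, so the shares beside them do not measure how unusual the set is. The 1 wild-type array stands in both comparisons, so the 2 sets of differences are not independent. In bulk tissue, fewer cells of a type and less RNA per cell cannot be told apart.

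**Figure D2:**
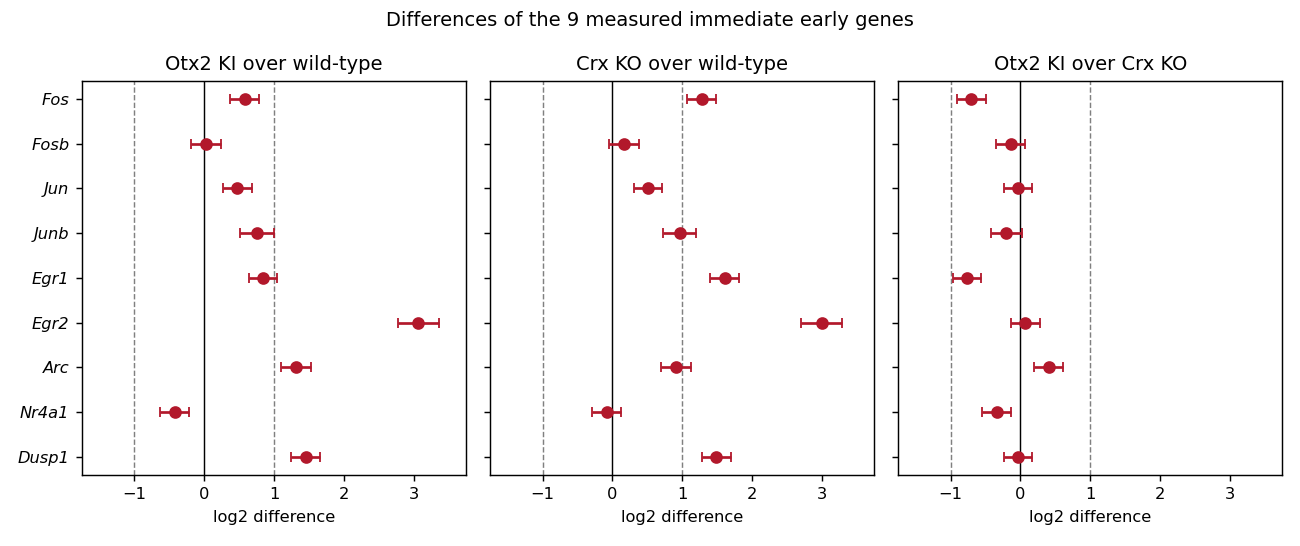
Log2 differences (x axes) of the 9 immediate early genes well above background on all 3 arrays, for Otx2 KI over wild-type, Crx KO over wild-type and Otx2 KI over Crx KO; bars are the scanner software's error and dashed lines mark 2-fold. Egr2 lies near 3 in both comparisons with wild-type, and no gene passes 2-fold between the mutants.

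Among the AP-1 subunits, Fos had the largest difference in Crx KO. Fos forms the AP-1 transcription factor by pairing with a Jun protein. Over its 10 spots the signal ran from 672 to 781 in Otx2 KI (median 717), from 1060.5 to 1244 in Crx KO (median 1178), and from 449 to 507 in wild-type (median 483). The ranges of the 3 arrays did not overlap, so the steps from Crx KO to Otx2 KI to wild-type were larger than the spread of spots within an array. The spots share 1 RNA and are not replicates of a genotype. Averaged, Fos was 2.43-fold higher in Crx KO (log2 1.28 ± 0.20) and 1.49-fold higher in Otx2 KI (0.58 ± 0.20) than in wild-type.

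**Figure D3:**
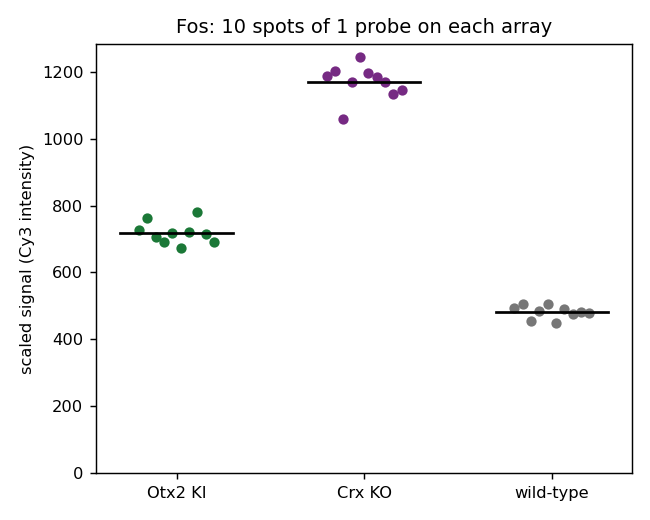
Scaled signal (Cy3 intensity, linear axis from 0) of the 10 spots of the Fos probe on the Otx2 KI, Crx KO and wild-type arrays; each point is a spot and the line is the mean. The spots of Crx KO lie above all others, and those of wild-type below all others.

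Jun, a partner of Fos, read 6555 in Otx2 KI, 6709 in Crx KO and 4720.2 in wild-type. Both mutants were above wild-type by similar amounts, 1.39-fold in Otx2 KI (log2 0.47 ± 0.20) and 1.42-fold in Crx KO (0.51 ± 0.20), each under 2-fold and more than 2 times the measurement error. Junb, a Jun relative, had 47.2 in Otx2 KI and 54.3 in Crx KO, against 27.9 in wild-type. The signal was 1.69-fold higher in Otx2 KI and 1.95-fold higher in Crx KO (log2 0.76 ± 0.24 and 0.96 ± 0.24), so in Crx KO it stopped just short of 2-fold. Junb is a dim probe whose local background was marked as unusual on the Otx2 KI array. A background correction with an added offset of 50 (normexp) shrinks log2 differences between dim signals. With it the Junb differences were 0.27 and 0.50. Fosb, a Fos relative best known for a truncated form that accumulates with repeated stimulation in brain, differed little, with 101 in Otx2 KI, 111 in Crx KO and 99.1 in wild-type. Its log2 differences of 0.029 ± 0.21 and 0.17 ± 0.21 were within the measurement error.

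The Egr genes encode zinc finger factors that bind a GC-rich site and act downstream of MAP kinase signalling. Egr1, whose chick counterpart responds to image focus in amacrine cells, had 7802 in Otx2 KI, 13282 in Crx KO and 4359.6 in wild-type. Like Fos it was highest in Crx KO, 3.05-fold above wild-type (log2 1.61 ± 0.20), and intermediate in Otx2 KI, at 1.79-fold (0.84 ± 0.20). In Crx KO 104 of the 16048 measured genes, Egr1 included, were higher by as much or more, and in Otx2 KI 295 of 15809 were.

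Egr2, also known for its role in Schwann cell myelination, had the largest difference from wild-type of the 9 measured genes. It read 150.1 in Otx2 KI, 143 in Crx KO and 18.0 in wild-type, so the mutant arrays were nearly level and only wild-type was low. The difference was 8.36-fold in Otx2 KI (log2 3.06 ± 0.29) and 7.98-fold in Crx KO (2.996 ± 0.29). Counting Egr2 itself, 13 of the 15809 measured genes were higher by as much in Otx2 KI, and 27 of 16048 in Crx KO. The wild-type spot was close to background: its median pixel was 48 against a local background of 39, and the lowest scaled signal called well above background on that array was 10.2. The size of the fold rests on a dim reading, and with normexp it was log2 1.24 in Otx2 KI and 1.23 in Crx KO, still past 2-fold. Egr3, a relative of Egr1 needed for muscle spindles in mice, was not well above background on any array, with signals of 7.93, 7.27 and 2.59 in Otx2 KI, Crx KO and wild-type. Its local background was marked as unusual on all 3 arrays, and no fold is given.

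Arc encodes a cytoskeletal protein of active synapses that promotes the removal of AMPA receptors. It had 191 in Otx2 KI, 144 in Crx KO and 76.8 in wild-type, and here Otx2 KI was the highest. Arc was 2.48-fold higher in Otx2 KI (log2 1.31 ± 0.21) and 1.88-fold higher in Crx KO (0.91 ± 0.21). With normexp these were 0.89 and 0.65, so the call at 2-fold in Otx2 KI was lost.

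Dusp1 encodes a phosphatase that switches off MAP kinases and is itself induced by them. It had 1135 in Otx2 KI, 1165 in Crx KO and 415 in wild-type. The mutants were level with each other, at 2.73-fold (log2 1.45 ± 0.20) and 2.81-fold (1.49 ± 0.20) above wild-type. Dusp1 and Egr2 were the genes of the 10 past 2-fold in both mutants.

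Nr4a1, which encodes the orphan nuclear receptor Nur77, was the exception in direction. It had 3327 in Otx2 KI, 4219 in Crx KO and 4465 in wild-type, the only one of the 9 measured genes with its highest reading in wild-type. It was 1.34-fold lower in Otx2 KI (log2 -0.42 ± 0.20) and within the error in Crx KO (-0.082 ± 0.20, and 0.039 with normexp).

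**Figure D4:**
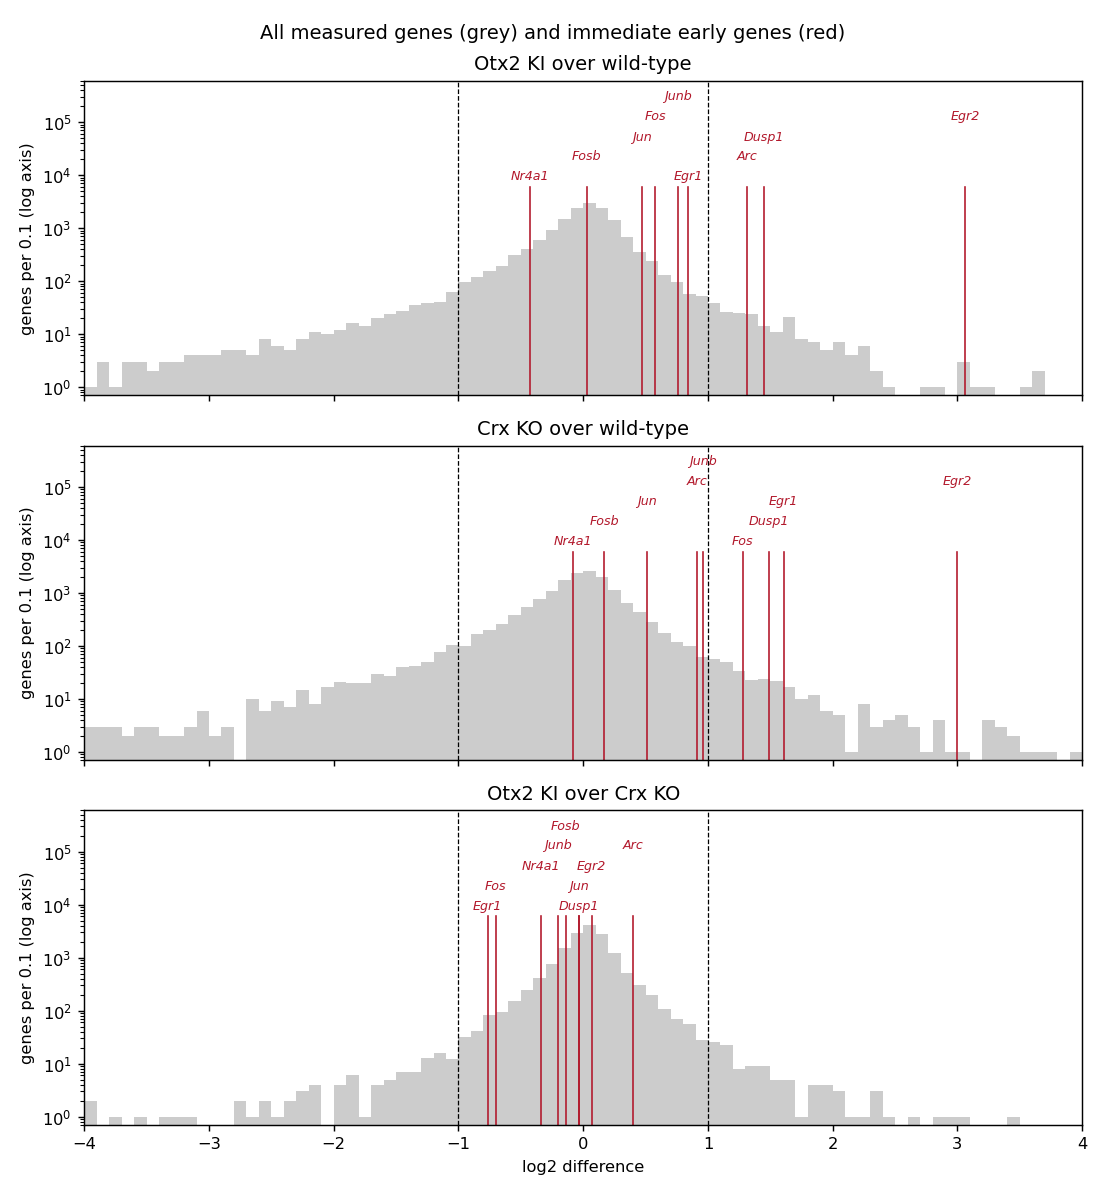
Histograms of log2 differences (x axis, bins of 0.1, log y axis of genes per bin) over all measured genes in grey, with the 9 measured immediate early genes as red lines, for Otx2 KI over wild-type, Crx KO over wild-type and Otx2 KI over Crx KO; 22, 27 and 5 genes lie beyond the axis at 4 either way. Most red lines lie right of the peak in the upper panels, with Egr2 in the thin right tail.

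Set directly against each other, the mutant retinas differed less, and this comparison does not involve the wild-type array. None of the 9 genes was 2-fold apart, beside 0.677% of 15805 measured genes higher and 0.645% lower in Otx2 KI (1.32% either way). With Crx KO as the base, Egr1 was 1.70-fold lower in Otx2 KI (log2 -0.77 ± 0.20) and Fos 1.63-fold lower (-0.70 ± 0.20). They were the 2 of 9 genes past 2 times the measurement error, a size for which no share over all genes is given. Past 1.5-fold Egr1 and Fos were the 2 lower genes, where 2.31% of all genes were, and 0 of 9 were higher, where 2.44% were. Of the 9, 2 were above 0 and 59.7% of all genes were. Arc leaned the other way, 1.32-fold higher in Otx2 KI (0.40 ± 0.21), and Nr4a1 was 1.27-fold lower (-0.34 ± 0.20). Egr2 (0.067 ± 0.21), Dusp1 (-0.038 ± 0.20), Jun (-0.034 ± 0.20), Fosb (-0.14 ± 0.21) and Junb (-0.20 ± 0.22) lay within the error. Sorted after seeing these values, Fos and Egr1 stepped up to Crx KO, while Egr2, Dusp1 and Jun were level in the mutants and lower in wild-type. Junb also read higher in both mutants, Arc highest in Otx2 KI, and Fosb and Nr4a1 were within 1.5-fold on all arrays.

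Other known immediate early genes were read from 2 further lists of 37 genes. In Otx2 KI, 2 of the 33 measured ones exceeded wild-type 2-fold and 3 lay below it by that much, with a median of 0.068. In Crx KO 1 was higher and 3 were lower, with a median of 0.030. The counts amount to 6.06% higher and 9.09% lower of the 33 in Otx2 KI, where 1.35% and 2.53% of all measured genes were, and to 3.03% and 9.09% in Crx KO, where 1.95% and 3.43% were. The medians lay near those of all measured genes, 0.030 and -0.0075. Btg2, an antiproliferative gene, had 5701 in Otx2 KI, 5418 in Crx KO and 2544 in wild-type, 2.24-fold and 2.13-fold higher. Klf10, a zinc finger gene induced by TGF-beta, read 2242, 2146 and 1099 on the same arrays, 2.04-fold and 1.95-fold higher (log2 0.95 and 0.85 with normexp). Jund, another AP-1 subunit, read 11917 in Otx2 KI, 11692 in Crx KO and 8097 in wild-type, or log2 0.56 and 0.53. Ier2 had 0.57 and 0.61, Egr4, a further Egr factor, had -0.61 and -0.36 (-0.29 and -0.14 with normexp). Fosl1, Nr4a3, Zfp36 and Ptgs2 were not well above background on any array.

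Ier3, Trib1 and Atf3 were the 3 genes of these lists past 2-fold lower, in both mutants. Ier3, a gene of survival and stress signalling, had 198 in Otx2 KI, 213 in Crx KO and 1797 in wild-type, 9.08-fold and 8.43-fold lower (log2 -3.18 and -3.08). Trib1, a pseudokinase, had 3407 in Otx2 KI, 2430.0 in Crx KO and 7475 in wild-type, 2.19-fold and 3.08-fold lower, with its other probe at log2 -1.07 and -1.598. Atf3, a stress-induced factor that pairs with Jun proteins, had 60.9 in Otx2 KI, 64.3 in Crx KO and 129 in wild-type, 2.12-fold and 2.01-fold lower (log2 -0.64 and -0.66 with normexp). Ier3 had the largest difference of the 33 in both mutants, and with normexp it was -2.87 and -2.80.

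**Figure D5:**
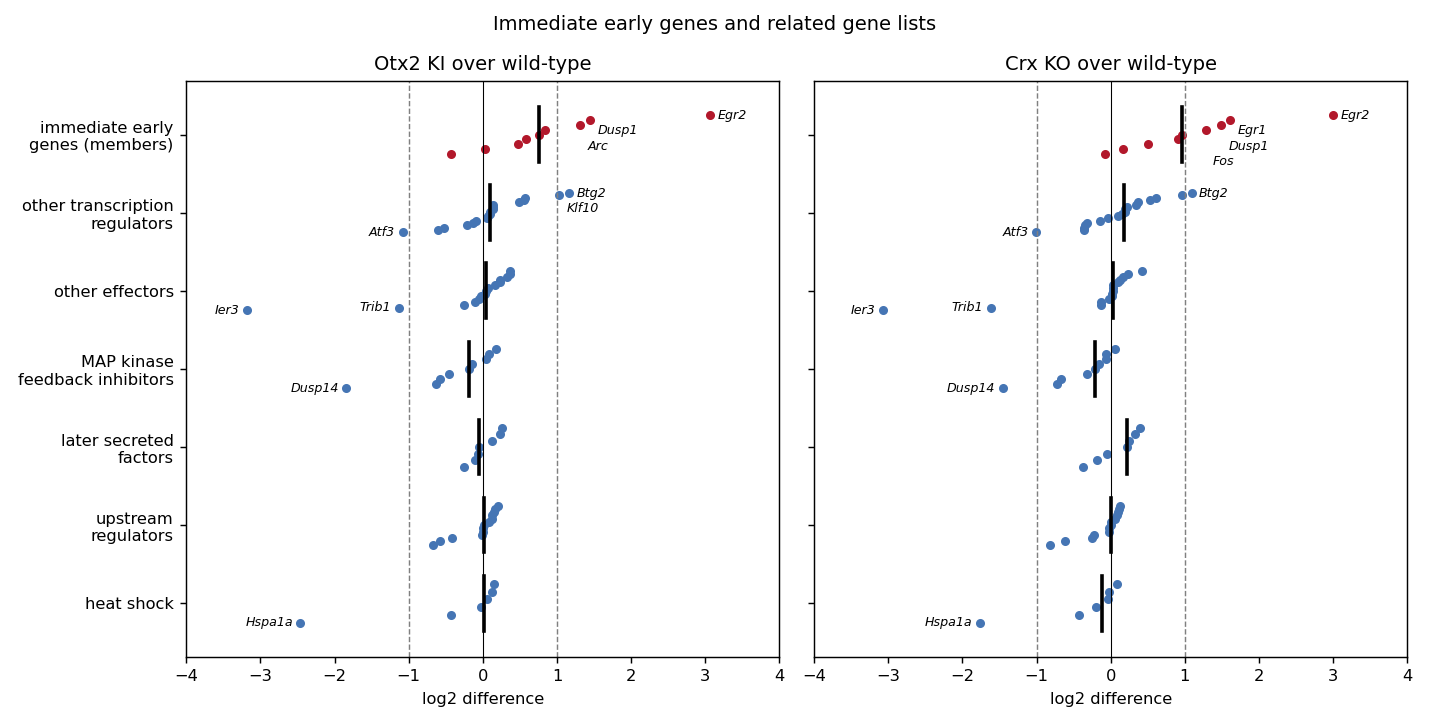
Log2 differences (x axes) of the measured genes of each list, for Otx2 KI over wild-type and Crx KO over wild-type; a point is a gene, the black bar is the list's median, dashed lines mark 2-fold, and genes past it are named. The median of the 10-gene set lies at 0.76 and 0.96, and those of the other lists lie between -0.21 and 0.22.

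Feedback inhibitors of MAP kinases other than Dusp1 made up a list of 9. Among them, none was higher by 2-fold and Dusp14 was lower, with 257 in Otx2 KI, 336 in Crx KO and 922 in wild-type (3.58-fold and 2.75-fold). Over all genes 1.35% were higher and 2.53% lower by 2-fold in Otx2 KI, and 1.95% and 3.43% in Crx KO. The medians were -0.18 in Otx2 KI and -0.21 in Crx KO, with Spry4 at -0.58 and -0.72 and Spry2 at -0.64 and -0.31. All 7 secreted factors that follow immediate early genes in active neurons were within 2-fold, with Bdnf at -0.049 and -0.18, Vgf at -0.25 and -0.37 and Nrn1 at 0.25 and 0.39. All 13 upstream regulators were also within 2-fold, with medians of 0.015 and 0.0083. Mef2c, an activity-dependent factor, was the furthest, at -0.67 and -0.82 (-0.23 and -0.29 with normexp).

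By pattern over the 3 arrays, the genes nearest to Egr2 were Rxrg, Irf5, B3gnt2, C2cd4b and Cyyr1. Likeness was the distance between the pairs of log2 differences from wild-type, over 15741 other genes measured on all arrays. The distances were 0.29, 0.29, 0.40, 0.53 and 0.53. Rxrg, a retinoid receptor gene, had log2 differences of 3.23 in Otx2 KI and 3.23 in Crx KO. The distance uses differences from wild-type and not the level of a gene. The ranking rests on the dim wild-type reading of Egr2: with normexp, tried after seeing the data, 0 of these 5 were among the 5 nearest, which were Chgb, Rtn4rl1, Txnip, C1ql3 and Echdc3, and Rxrg lay at a distance of 2.75.

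Several cell type marker lists differed in the same comparisons, and their part in the results above was not tested. Beside the counts below, 1.35% of all measured genes were higher and 2.53% lower by 2-fold in Otx2 KI, and 1.95% and 3.43% in Crx KO. The 5 rod markers summed to a scaled signal of 115972 in Otx2 KI, 109296 in Crx KO and 336884 in wild-type, with 3 of 5 and 4 of 5 lower by 2-fold. The 4 cone markers summed to 6791 in Otx2 KI, 10782 in Crx KO and 26957 in wild-type, with 2 of 3 measured ones lower by 2-fold in both mutants and medians of -3.45 and -2.54. Opn1sw, the short-wave cone opsin gene, was well above background in wild-type only. All 3 red blood cell genes read lower, with log2 differences of -0.73 to -0.66 in Otx2 KI and of -0.73 to -0.52 in Crx KO, and summed to 10352, 11246 and 16675 in Otx2 KI, Crx KO and wild-type. Of 5 measured pigment epithelium markers, 2 in Otx2 KI and 3 in Crx KO were 2-fold lower, with sums over 6 of 4894, 3540.2 and 10480.5 in Otx2 KI, Crx KO and wild-type, and Best1 not above background. Lens markers were 2-fold higher in Otx2 KI for 3 of 5 measured and in Crx KO for 0 of 5, with sums over 6 of 1041, 408 and 609. The 23 inner retina markers had medians of 0.051 and 0.060 with none past 2-fold. These pool lists that leaned opposite ways. All 6 bipolar markers were below 0 in both mutants, with medians of -0.20 and -0.12. Medians were above 0 for amacrine (0.026 and 0.060), ganglion (0.084 and 0.25) and Muller glia markers (0.12 and 0.25). With each array centred on the median level of the 23 markers the same genes of the 10 stood past 2-fold. These median levels differed from wild-type by only log2 -0.024 in Otx2 KI and 0.0081 in Crx KO, too little to change any of these calls.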

How the data were processed

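RNA of 3 mouse retina samples was labelled with Cy3, per the labels' protocols. The deposited scanner files hold the intensity of each spot from Agilent Feature Extraction 12.0.3.1, per the file headers, which name mouse build mm9 for the design. The authors' deposited value table is the processed intensity times a nearly constant factor per array (median 2.54 for Otx2 KI, 2.61 for Crx KO and 2.49 for wild-type, as found by setting them side by side; column medians 125.7, 135.8 and 129.8); its scale is linear and uncentred.

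Control spots and outlier spots (132, 126 and 136) were left out, log2 intensity was reduced by each array's 75th percentile, and spots of a probe were averaged. Accessions were matched without versions to RefSeq genes of GRCm38.p6, naming 28331 of 55681 probes. A gene was read on its brightest probe and counted as measured when well above background on both arrays, and called at 2-fold. The number of arrays limits the precision. The difference and call steps were tested on simulated gene values, and the steps before them were not. Alternatives were normexp (limma 3.58.1, offset 50, on median spot and background pixels in place of the planned mean pixels), quantile and median scaling, no filter, probe means, the value table, and a 1.5-fold threshold. Python 3.11.15, numpy 2.4.6 and pandas 2.3.3 were used.

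The members, gene lists and marker lists were chosen with earlier results of these data known. All members are named, with up to 6 genes of each other list by largest difference and the 5 genes nearest to the member of widest range, plus some chosen after their values were seen. Motifs and the promoters printed were likewise chosen afterwards. All arrays lay on 1 slide and shared a scan.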

Additional observations from a re-analysis of the deposited data

How the results depend on the processing

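Of 27 log2 differences of the 9 measured genes recomputed with normexp, 6 moved by more than the measurement error. They were Arc, Egr2 and Junb against wild-type in both mutants. Of 187 recomputed with the other settings 0 moved, and 0 called values turned sign under any. Most of those settings could hardly move a value. Dropping the filter or averaging probes leaves measured genes of 1 probe unchanged. The value table and the centrings shift all genes of an array by about the same amount. The counts past 2-fold held within 1.5 times under every alternative run except the 1.5-fold threshold. At that threshold 5 genes passed in Otx2 KI against wild-type, in place of 3, and 2 between the mutants, in place of 0. In Crx KO 6 passed it. Counts over the other settings ran from 2 (normexp, without Arc) to 4 in Otx2 KI and from 4 to 5 in Crx KO, the highest including Egr3 with no filter on dim probes. The median of the genes with normexp was 0.54 in Otx2 KI and 0.65 in Crx KO. The background itself depended on the setting: the share of genes higher by 2-fold in Otx2 KI was 1.35%, but 0.822% with normexp and 2.33% with no filter, and in Crx KO 1.95%, 1.13% and 3.69%. The share lower by 2-fold was 2.53% in Otx2 KI and 4.24% with no filter, and in Crx KO 3.43% and 2.04% with normexp. Between the mutants 0.677% were higher and 0.645% lower, against 0.221% and 0.316% with normexp and 1.84% and 2.72% with no filter. Between the mutants, median centring turned the sign of Dusp1 (0.019) and Jun (0.024), both within the error. Centring on inner retina markers and leaving out spots with a marked local background were chosen after seeing the data and changed no call. Neither could readily change one. The centring shifts were only log2 -0.024 and 0.0081. Leaving out marked spots altered no called gene but Fos, from 1.28 to 1.27 in Crx KO, and left Junb without a value in Otx2 KI. No paired analysis was possible because each genotype has 1 array, and for the same reason no array could be left out. Signal over background limits Egr2, Junb and Arc in wild-type.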

Other observations

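Heat shock genes are another class that responds quickly to handling and stress, and any part of handling in these arrays was not tested. Of 6 measured genes, Hspa1a, an inducible Hsp70 chaperone, was the only one past 2-fold, with 133 in Otx2 KI, 215 in Crx KO and 731 in wild-type (5.51-fold and 3.40-fold lower; log2 -2.10 and -1.58 with normexp). Hspa1a has a near-identical neighbour, Hspa1b, and 1 probe cannot be assumed to tell them apart. The others lay between log2 -0.43 and 0.15 in Otx2 KI and between -0.42 and 0.087 in Crx KO. Hsp90aa1 was the lowest of these in both mutants, past 2 times its measurement error. Over all measured genes 2.53% were lower by 2-fold in Otx2 KI and 3.43% in Crx KO.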
